A study of Mus musculus with 8 samples.

Results

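The microRNAs (miRNAs) mmu-miR-146a-5p and mmu-miR-146b-5p, written below without the species prefix, were examined in small RNA libraries of mouse CD8+ T cells. They were taken by name from the table of mature miRNAs, 2 members of 1978, and both passed the filter on low counts that left 375 miRNAs for testing. The libraries came from spleens of C57BL/6 mice, an inbred laboratory strain, with 4 neonatal samples (5 to 7 days after birth) and 4 adult samples (12 weeks). No treatment or allele is named for either group. CD8+ T cells, which recognise and kill infected cells, had been enriched on magnetic beads against CD8a, a step that keeps naive and memory cells alike and leaves some other cells. Whether each sample is 1 animal or a pool is not in the labels. The p-values below therefore reflect spread among the samples alone, some of which may be technical.

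miRNAs guide Argonaute proteins to messenger RNAs that pair with the seed, bases 2 to 8 counted from the 5′ end, and lower the output of those messengers. miR-146a is switched on by the transcription factor NF-kB after stimulation of antigen or Toll-like receptors. It then represses Traf6 and Irak1, proteins that carry receptor signals to NF-kB, and so closes a negative feedback loop. In T cells it is known to limit the strength and duration of NF-kB activity after antigen contact. miR-146b has the same seed and comes from a separate gene.

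The mature sequences are shown because their likeness decides how well the members can be counted apart. The seed is in capitals, and the sequences are from RefSeq (GRCm38.p6).
mmu-miR-146a-5p: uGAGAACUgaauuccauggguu
mmu-miR-146b-5p: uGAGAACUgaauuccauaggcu
Of 22 bases, 20 are the same. With miR-146a-5p as the reference and positions counted from its 5′ end, the differences are G18A and U21C. The first 17 bases are therefore identical, and a read has to reach position 18 before it can be given to either member. Among 1679 mature mouse miRNAs in the RefSeq table, these 2 were the only ones with the seed GAGAACU, and no other miRNA starts with the same 17 bases.

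The hairpins from which they are cut are 65 bases (mir-146a) and 109 bases (mir-146b) long. Both mature arms are in capitals, the 5p arm first.
mir-146a hairpin: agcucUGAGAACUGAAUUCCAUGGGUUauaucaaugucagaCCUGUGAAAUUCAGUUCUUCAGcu
mir-146b hairpin: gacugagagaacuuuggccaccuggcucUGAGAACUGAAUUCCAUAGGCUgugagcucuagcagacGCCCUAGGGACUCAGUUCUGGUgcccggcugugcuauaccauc
Read position by position from their 5′ ends, without alignment, the 3p arms match at 4 of 22 positions. Both also hold the stretch UCAGUUCU, which starts at a different position in each, so this count understates their likeness. The mir-146a hairpin lies on the minus strand at chr11:43374397-43374461 (mm10), outside any other GENCODE gene. Its nearest annotated neighbour is the long noncoding gene Gm12148, 11021 bases away, and the nearest protein-coding gene is Pttg1, 45789 bases away. The mir-146b hairpin lies on the plus strand at chr19:46342762-46342870, inside the protein-coding gene Mfsd13a on the same strand. Of the 5 annotated Mfsd13a transcripts 1 spans the hairpin, which falls in its first intron, and none has an exon there.

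The sites that the shared seed can pair with are illustrated by Traf6 and Irak1. The letters AGTTCTCA, the complement of the seed followed by an A, were searched on the sense strand of the longest annotated 3′ untranslated region of each gene (GENCODE M21), and the match is in capitals.
Traf6 (chr2:101697945-101697966, plus strand): ccgctctggtgttgAGTTCTCA
Traf6 (chr2:101698009-101698030, plus strand): ccctggaaggcttaAGTTCTCA
Irak1 (chrX:74015393-74015414, minus strand): gactcagaggtcaaAGTTCTCA
Irak1 (chrX:74015377-74015398, minus strand): ttctcatgcttggaAGTTCTCA
Traf6 held 4 such matches, of which the first pair is shown, and Irak1 held 2. At least 1 match was found in 4.08% of the 21022 genes with an annotated region. These regions differ in length, with a median of 961 bases against 4170 for Traf6 and 1526 for Irak1. Messenger RNAs were not measured in these libraries, so nothing here bears on the use of the sites.

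miR-146a-5p was much lower in neonatal than in adult CD8+ T cells. Its level, in depth-scaled counts (CPM) after TMM scaling, was 1465, 1797, 1335 and 1802 CPM in neonatal libraries 1 to 4. It was 11706, 12325, 11143 and 11419 CPM in adult libraries 1 to 4. The groups were far apart, and the highest neonatal library was below every adult one. TMM scaling aligns the libraries by the trimmed mean of their miRNA ratios.

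The means were 1600 ± 237 (SD, n = 4) and 11648 ± 506 CPM (SD, n = 4), a log2 fold change, neonatal over adult, of -2.86 ± 0.15 (SE). The level was thus 7.28-fold lower in neonatal libraries, with an adjusted p of 1.61e-08 by edgeR's quasi-likelihood test over all 375 miRNAs. These values rest on 2745 to 5038 neonatal and 12054 to 23439 adult counts per library, so counting error is small beside the spread between libraries. The coefficient of variation between libraries was 14.8% in neonatal and 4.35% in adult cells. In each age group the fraction of cells that hold the miRNA and its amount in each such cell cannot be told apart, since the RNA was pooled over cells.

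miR-146b-5p was the scarcer member and, in the counts as deposited, differed less between the age groups. It stood at 260, 275, 263 and 312 CPM in neonatal libraries 1 to 4. The adult values, in the same order, were 429, 508, 348 and 473 CPM. The groups did not overlap, though neonatal library 4 and adult library 3 were close.

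Its means were 277 ± 23.8 (SD, n = 4) and 440 ± 69.0 CPM (SD, n = 4), a log2 fold change of -0.66 ± 0.15 (SE), 1.58-fold lower in neonatal libraries, with an adjusted p of 0.00221 by edgeR. Both members thus passed as lower on the TMM scale, as did 34.1% of all tested miRNAs, and 63.2% changed in either direction. Groups that did not overlap, with the neonatal libraries lower, were found for 30.9% of all tested miRNAs. Calls of this kind are common in these data. miR-146a-5p had the sixth lowest log2 fold change of the 375, whereas miR-146b-5p ranked at 121 from the lowest, against a median of -0.05 over all tested miRNAs.

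**Figure D1:**
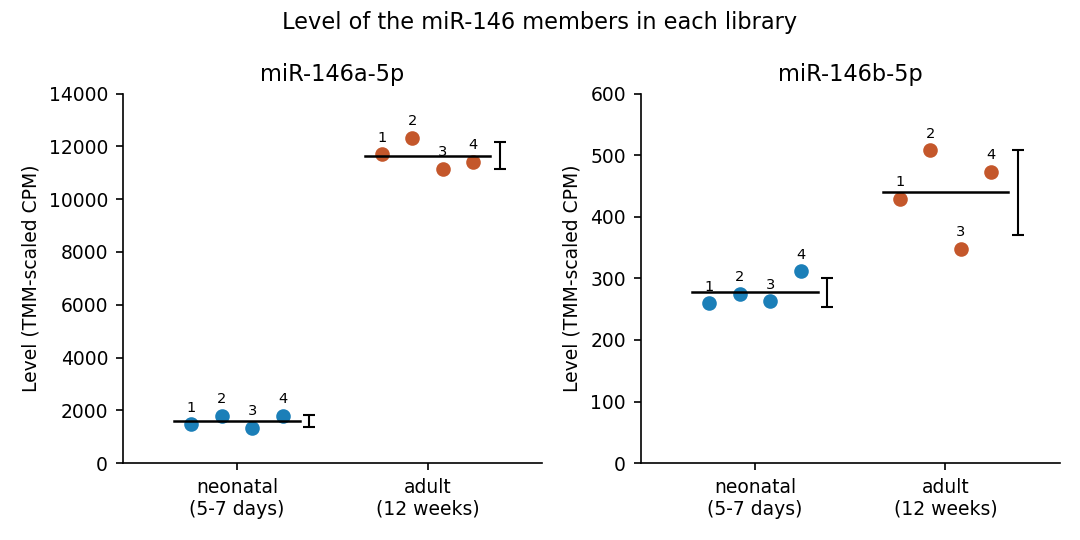
Level of miR-146a-5p (left) and miR-146b-5p (right) in TMM-scaled CPM in each library, with replicate numbers beside the points, a line at the group mean and a bar of ± 1 SD (n = 4). The neonatal points of miR-146a-5p sit between 1335 and 1802 CPM and the adult points between 11143 and 12325 CPM, while those of miR-146b-5p lie at 260 to 312 and 348 to 508 CPM.

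miR-146a-5p was called lower with TMM, RLE and library-total scaling, but miR-146b-5p was called only with TMM and RLE. Scaling by library totals in place of TMM raised all log2 fold changes by a median of 0.63. On that scale miR-146a-5p was still lower, with a log2 fold change of -2.24 ± 0.12 (SE; edgeR's adjusted p = 4.89e-08), among 18.1% of miRNAs that were then called lower. miR-146b-5p stood at -0.03 ± 0.14 (SE) and was not called (edgeR's adjusted p = 0.854). When TMM-scaled counts were also corrected for the GC content of the mature sequences, miR-146b-5p stood at -0.42 ± 0.13 (SE) and was called (edgeR's adjusted p = 0.0125).

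Shares of all counts, which are the library-total scale in other units, give the values behind this by library. miR-146a-5p took 0.189%, 0.223%, 0.173% and 0.209% of the counts of neonatal libraries 1 to 4. Its shares of the adult libraries were 0.941%, 0.971%, 0.899% and 0.927%. The group means of 0.198% ± 0.0217 and 0.935% ± 0.0299 (SD, n = 4 each) gave p = 0.0286 in an exact permutation test (two-sided), the smallest p that 4 against 4 libraries allow. Adjusted over the 5 exact tests made on these miRNAs it was 0.0714, so it did not pass the correction.

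As deposited, miR-146b-5p held similar mean shares in both groups. These shares depend on how reads shared with miR-146a-5p were divided, as described below, and were not recomputed with such reads taken off. It took 0.0335%, 0.0340%, 0.0342% and 0.0361% of neonatal and 0.0345%, 0.0400%, 0.0281% and 0.0384% of adult counts. The adult libraries lay on both sides of the neonatal ones, with means of 0.0344% ± 0.00114 and 0.0353% ± 0.00531 (exact permutation test, two-sided, p = 0.83, n = 4 each). The difference of means was -0.000809 percentage points, which is smaller than the SD of either group.

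**Figure D2:**
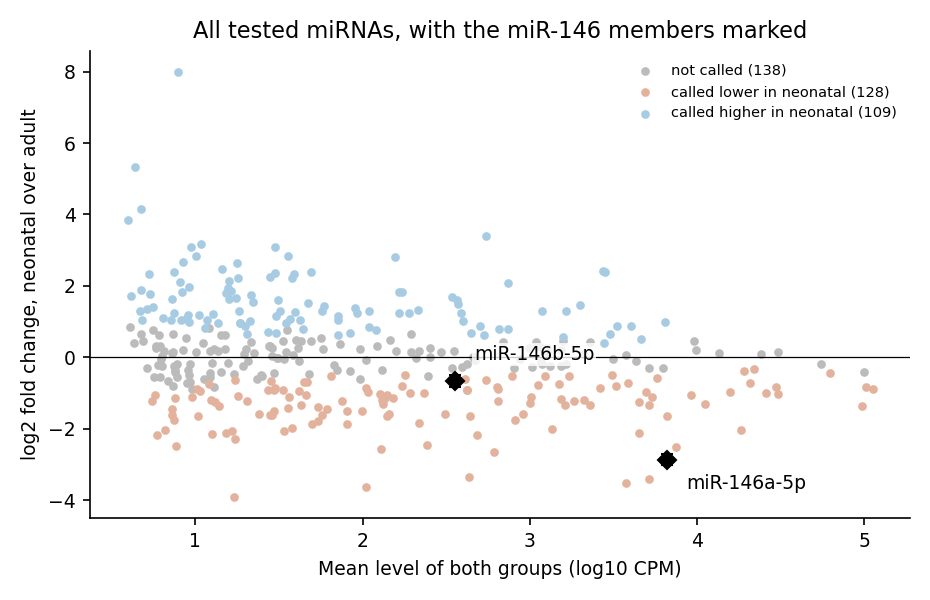
log2 fold change, neonatal over adult, of all 375 tested miRNAs against the mean level of both groups (log10 CPM), coloured by edgeR's call, with the members as black diamonds with ± 1 SE bars. miR-146a-5p, at -2.86, lies near the lower edge of the points, and miR-146b-5p, at -0.66, within the main band.

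The balance between the members shifted with age. For each count of miR-146b-5p there were 5.64, 6.54, 5.07 and 5.78 counts of miR-146a-5p in neonatal libraries 1 to 4. The adult libraries 1 to 4 had 27.3, 24.3, 32.0 and 24.2. The groups were well separated, and adult library 3 had the highest ratio.

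The log2 ratio of the counts was 2.52 ± 0.15 in neonatal and 4.74 ± 0.19 in adult libraries (SD, n = 4 each), a difference of -2.22. This ratio needs no scaling between libraries, but its size depends on how reads shared by the members were divided, as described below. The exact permutation test (two-sided) gave p = 0.0286 (n = 4 each), again the lowest this design can reach, and 0.0714 after adjustment over the 5 tests, which does not pass. miR-146b-5p made up 14.9% ± 1.32 of the counts of both members in neonatal libraries and 3.63% ± 0.447 in adult libraries. Library kits join adapters to different miRNAs with different efficiency, so the ratio within a library is not a ratio of molecules, while its change between libraries can be compared.

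**Figure D3:**
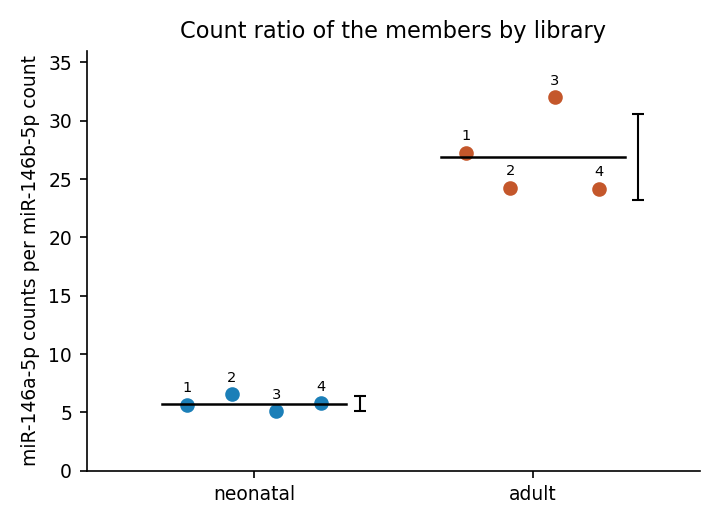
Counts of miR-146a-5p for each count of miR-146b-5p in the 8 libraries, with replicate numbers, group means as lines and bars of ± 1 SD (n = 4). The neonatal libraries lie between 5.07 and 6.54 and the adult ones between 24.2 and 32.0.

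Reads were shared between the members in the deposited table. The counts are estimated, and in 6 of 8 libraries those of miR-146a-5p and miR-146b-5p both ended in a fraction of 0.5. In the other 2 both were whole (tolerance 0.005). None of the other miRNAs with a count had these fractions in all 8 libraries. A read that matches both entries and is divided evenly leaves such fractions, and how many reads were divided cannot be told from the table.

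Because miR-146a-5p was so much more abundant in adult libraries, a small share of its reads weighs more on miR-146b-5p there. The miR-146b-5p count was 15.3% to 19.7% of the miR-146a-5p count in neonatal libraries, but only 3.12% to 4.14% in adult ones. When 1% of the miR-146a-5p count of each library was taken off its miR-146b-5p count, the log2 fold change of miR-146b-5p became -0.30 ± 0.17 (SE) and was not called (edgeR's adjusted p = 0.135). With 2% it turned to 0.25 ± 0.21 (SE) and was not called (edgeR's adjusted p = 0.312). The direction for miR-146b-5p is therefore not settled by these counts. The log2 ratio of the members kept its direction, with a difference of -2.59 at 1% and -3.17 at 2%, against -2.22 as deposited.

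miR-146a-5p is little touched by such sharing. With both members summed to a single entry, which holds every shared read, the log2 fold change was -2.64 ± 0.13 (SE; edgeR's adjusted p = 2.56e-08).

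**Figure D4:**
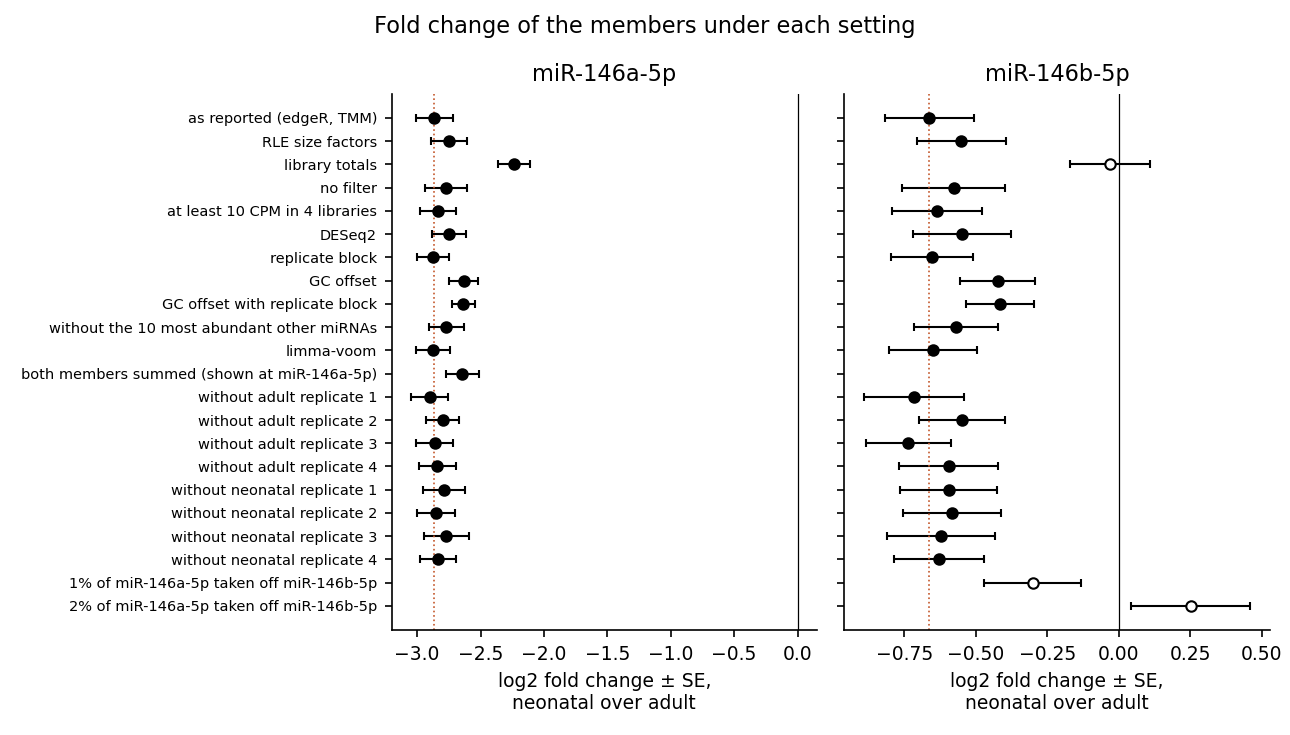
log2 fold change ± SE of miR-146a-5p (left) and miR-146b-5p (right) as reported and under each other setting, filled where the adjusted p is under 0.05, with a dotted line at the reported value. miR-146a-5p stays between -2.90 and -2.24, while miR-146b-5p is not called with library totals (-0.03) or when 1% or 2% of the miR-146a-5p count is taken off (-0.30 and 0.25).

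The passenger arms were almost absent. miR-146a-3p had 0, 0, 0 and 2 counts in the neonatal libraries and 0, 2, 1 and 2 counts in the adult ones, in replicate order. miR-146b-3p had 1, 0, 5 and 3 counts in neonatal and 2, 1, 1 and 3 in adult libraries. Apart from the library with 5 counts, these values lie at or under a floor of 3 counts, below which a count of 0 is not told from a low level, so neither arm was tested against age.

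In both groups the 5p arm was by far the more abundant product of both hairpins. The log2 ratio of 5p to 3p counts, with 0.5 added to each, was 12.3 ± 0.94 in neonatal and 13.6 ± 0.79 in adult libraries for mir-146a (SD, n = 4 each; exact permutation test, two-sided, p = 0.0857, adjusted p = 0.143). For mir-146b it was 8.39 ± 1.55 and 8.35 ± 0.71 (SD, n = 4 each; exact permutation test, two-sided, p = 1). With the 3p arm near 0, these ratios follow the depth of the 5p arm and the added 0.5, and a change in arm use was not detectable at this depth.

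By level miR-146a-5p ranked at 21 of the 375 tested miRNAs in adult and at 55 in neonatal libraries. In adult libraries it stood between miR-140-3p (12389 ± 1403 CPM) and miR-142a-5p (10000 ± 3276 CPM), and neither differed from it beyond their spread. In neonatal libraries its neighbours were miR-1198-5p (1645 ± 308 CPM) and miR-200b-3p (1546 ± 100 CPM), again within the spread. miR-146b-5p ranked at 106 in adult libraries, between miR-106b-5p (447 ± 112 CPM) and miR-139-3p (427 ± 63.9 CPM). It ranked at 116 in neonatal libraries, between let-7a-1-3p (292 ± 37.3 CPM) and miR-200c-3p (277 ± 23.0 CPM). None of these could be separated from it, and all ranks carry the ligation preferences of the kit.

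The miRNAs most like miR-146a-5p were those with the smallest root mean square difference in log2 CPM, each centred on its mean over the 8 libraries, among 374 others. They were miR-504-5p (0.24), miR-1843a-5p (0.25), miR-1843a-3p (0.27), let-7b-5p (0.34) and miR-125a-5p (0.34). All 5 were lower in neonatal libraries, with log2 fold changes of -3.36 to -2.44. The distance includes the difference between age groups, so like fold changes follow largely from the choice. let-7b-5p was of similar abundance, with 12725 CPM in adult and 2216 CPM in neonatal libraries, while the others had at most 1059 CPM in adult libraries. For miR-146b-5p the closest were miR-532-3p (0.12), let-7f-5p (0.14), miR-30b-3p (0.16), let-7g-5p (0.17) and miR-203-3p (0.18), with log2 fold changes of -0.89 to -0.49. No miRNA was among the 5 closest to both members, which likewise follows largely from their unlike fold changes.

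Other miRNAs tied to NF-kB signalling went in both directions. Of 21 on the list, 18 were tested, 7 were lower and 6 higher in neonatal libraries, and 5 did not pass. These are 38.9% and 33.3% of the tested ones, close to the 34.1% and 29.1% of all tested miRNAs, and the list's median log2 fold change of -0.20 compares with -0.05 over all of them. With library totals 5 were lower and 8 higher, against 18.1% and 49.6% of all tested miRNAs.

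Among miRNAs that NF-kB or T cell activation induces, miR-155-5p, whose effects on the response oppose those of miR-146a, was lower in neonatal libraries. It stood at 376 ± 27.0 CPM there and at 1266 ± 172 CPM in adult libraries (-1.75 ± 0.15 SE). miR-221-3p (-1.64) and miR-222-3p (-1.01), from a shared transcript, were lower too, although miR-222-3p lost its call with library totals (-0.38, edgeR's adjusted p = 0.0715). miR-21a-5p stood at -0.19 ± 0.24 and was not called, and it was above 0 with library totals (0.44). miR-132-3p was higher in neonatal libraries by 1.28 ± 0.28 on the log2 scale, and miR-9-5p, which targets Nfkb1, by 1.04 ± 0.34. The latter was at 3.14 ± 0.681 CPM in adult and 6.38 ± 0.528 CPM in neonatal libraries.

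Those known to act on regulators of the pathway were divided. miR-125a-5p, which targets the inhibitor A20, was lower in neonatal libraries by 3.36 ± 0.19 on the log2 scale, whereas miR-125b-5p with the same seed was higher by 1.37 ± 0.28. Lower neonatal levels were seen for miR-16-5p (-1.24), miR-19a-3p (-1.03) and miR-19b-3p (-1.22), with miR-19a-3p losing its call with library totals (-0.41, edgeR's adjusted p = 0.256). miR-301a-3p (2.66), miR-31-5p (1.87) and miR-181b-5p (1.31) were higher in neonatal libraries. The size for miR-301a-3p is imprecise, as its adult level of 2.15 ± 1.73 CPM lies near the floor of 3 counts. miR-10a-5p (-0.47), miR-15a-5p (-0.22), let-7i-5p (0.08) and miR-181a-5p (0.21) were not called on the TMM scale. With library totals let-7i-5p (0.71) and miR-181a-5p (0.84) were called higher, and miR-10a-5p and miR-15a-5p turned above 0 without a call. miR-147-3p, miR-199a-5p and miR-223-3p reached no more than 21 counts and were not tested.

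**Figure D5:**
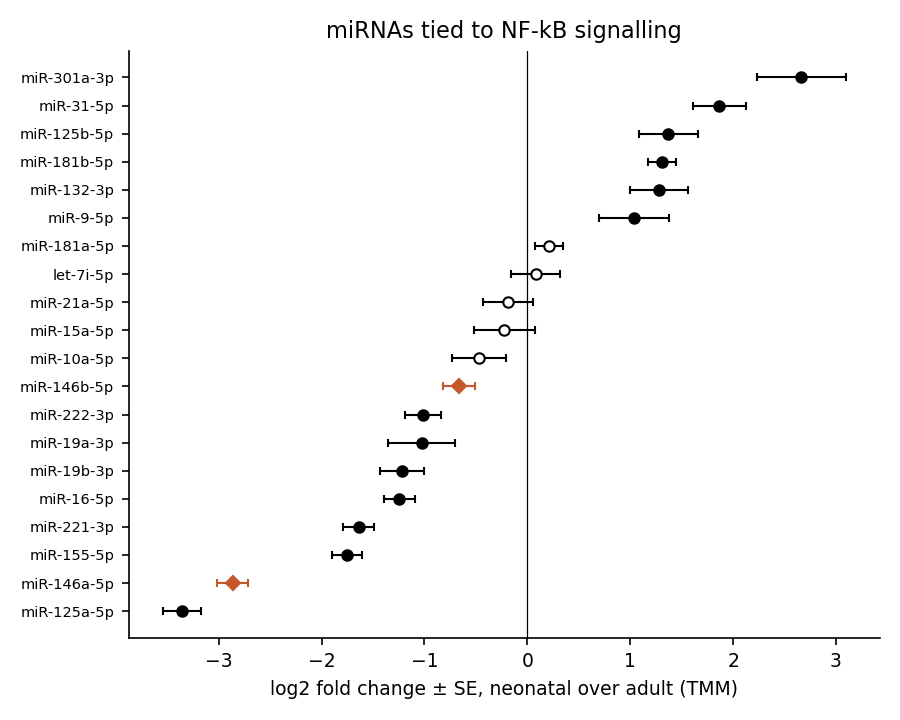
log2 fold change ± SE, neonatal over adult on the TMM scale, of the 18 tested miRNAs tied to NF-kB signalling (circles) and of both miR-146 members (orange diamonds), filled where edgeR's adjusted p is under 0.05. Values run from -3.36 for miR-125a-5p to 2.66 for miR-301a-3p, with miR-146a-5p second from the lower end.

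The libraries had 1281031 to 2606630 counts in all, so that 3 counts equal 1.07 to 2.91 CPM after TMM scaling. The reads carry no molecular identifiers, so this floor covers counting error and not the copying of molecules by PCR. The 5 miRNAs listed for the T lineage were miR-150-5p, miR-142a-3p, miR-142a-5p, miR-342-3p and miR-181a-5p, all abundant in both groups. Their sum ran from 72937 to 75700 CPM across the neonatal libraries, and from 143488 to 210074 CPM across the adult ones. miR-150-5p was the largest part, with a neonatal mean of 54314 CPM against an adult mean of 140507 CPM. Whether the 5 separate T cells from other spleen leukocytes was not tested, so the sum is not a measure of T cell content. On the TMM scale 4 of the 5 were called lower in neonatal libraries, against 34.1% of all tested miRNAs. With library totals 2 were lower and 1 higher, against 18.1% and 49.6%. The erythroid, endothelial, stromal and liver miRNAs moved the other way. The 5 erythroid ones summed to 308 to 775 against 120 to 252 CPM, both endothelial ones to 125 to 160 against 46.6 to 77.0 CPM, the 6 stromal ones to 114 to 170 against 37.1 to 84.0 CPM and the liver miRNA miR-122-5p to 745 to 1591 against 245 to 390 CPM. All 9 of these that were tested passed as higher in neonatal libraries, as did 29.1% of all tested miRNAs. The same 9 passed as higher with library totals, where 49.6% of all tested miRNAs did. Both myeloid miRNAs together summed to 3.49 to 8.54 CPM in neonatal and 2.85 to 9.10 CPM in adult libraries, and neither was tested. No listed marker was at 0 in all libraries. The part of these cells, and of the lower sum for the T lineage list, in the levels of miR-146a-5p and miR-146b-5p was not tested.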

How the data were processed

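The authors deposited raw estimated counts for each pair of mature miRNA and precursor. Per the submitters' processing notes the build was mm10. The aligner, counter and miRNA release were not stated in the labels. Per the labels' protocols, RNA was extracted with Trizol and libraries were made with the NEBNext small RNA kit.

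Counts were summed per mature miRNA, rounded to whole numbers and filtered with edgeR's filterByExpr (minimum count 10, minimum total 15). edgeR 4.0.16 (R 4.3.3) tested neonatal against adult libraries by its quasi-likelihood test after TMM scaling, with Benjamini-Hochberg adjustment over all 375 miRNAs. Each SE is the fold change divided by the square root of F. On simulated data for this comparison (345 miRNAs tested) the fit recovered 82.6% of changes of 1 and 100% of changes of 2 on the log2 scale, and 3.51% of its calls were false. The tested changes were 23 of size 1 and 36 of size 2, with 1 spread for all miRNAs. Changes were set equally up and down before the filter, and the split among the tested ones was not recorded. In the real data 63.2% were called, so these rates need not hold there. The simulation does not bear on the choice of scaling. Count ratios and shares were tested by exact permutation over all 70 divisions of the libraries, a family of 5. DESeq2 1.42.0, limma 3.58.1 (voom), other scalings and filters, and a GC offset from the mature sequences (found for 83.7% of the tested miRNAs) were alternatives.

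Named were both members, their 3p arms, miRNAs sharing the seed, the tested members of the NF-kB list, the 5 nearest profiles and the neighbours in level. The members and lists were chosen with earlier results of these data known. Both groups carry replicate numbers 1 to 4, whose meaning the labels do not give. Across miRNAs, same-numbered neonatal and adult libraries deviated together from their group means (r of 0.256 to 0.415). Some differently numbered libraries did so as strongly (adult 2 with neonatal 4, r = 0.482; adult 1 with neonatal 3, r = 0.397). Because r was above 0.1 in every same-numbered pair, the replicate number was used as a block in an alternative fit. The main tests above were unpaired. These correlations do not show that the numbers mark pairs.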

Additional observations from a re-analysis of the deposited data

How the results depend on the processing

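The lower neonatal level of miR-146a-5p kept its direction and call in all 19 other settings run. The log2 fold change lay between -2.90 and -2.24, and without any single library at -2.90 to -2.77. The lower neonatal level of miR-146b-5p kept both in 17 of 20, at -0.74 to -0.42, and without any single library at -0.74 to -0.55. It lost its call with library totals (-0.032) and, in settings chosen after seeing the data, with 1% of the miR-146a-5p count taken off (-0.30), and it turned to 0.25 with 2% taken off. With library totals 186 miRNAs were called higher and 68 lower, against 109 and 128 with TMM; without any single library the counts were 103 to 126 and 116 to 134. With the replicate number as a block edgeR gave -2.88 and -0.65 for the members, and no call of either changed. Within same-numbered pairs, the replicate block of the exact tests, the log2 ratio of the members differed by -2.22 and the share of miR-146a-5p by -0.736 percentage points, each at p = 0.125 (exact sign-flip test), the smallest that 4 pairs allow.

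Without any single library the log2 ratio of the members differed by -2.29 to -2.14, the share of miR-146a-5p by -0.748 to -0.724 and that of miR-146b-5p by -0.00320 to 0.000786 percentage points. The 5p to 3p log2 ratio differed by -1.61 to -0.87 for mir-146a and by -0.65 to 0.58 for mir-146b. The sign was reversed without adult library 2 or 4 for the share of miR-146b-5p (0.000786 and 0.000234), and without adult library 1 or 4 or neonatal library 2 for the mir-146b ratio (-0.25, -0.04 and -0.65). With a pseudocount of 1 the mir-146a ratio differed by -1.64 (exact permutation p = 0.0286 before adjustment, the smallest possible) and the mir-146b ratio turned to -0.065. The 3p arms, at 0 to 5 counts, are limited by depth.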
